A study of Mus musculus with 4 samples.

Results

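The Iroquois genes (Irx1 to Irx6) and the neighbouring Fto and Rpgrip1l genes were followed in TLE3 ChIP-seq of cultured mouse adipocytes. The 8 genes were taken by name, and a region belonged to them when the deposited peak tables gave one of these names as its nearest gene, at any distance from the start site. Of 69599 regions in the 3 joined TLE3 peak lists, 69 carried one of these names. They belonged to 7 of the 8 genes, and Irx4 was named by no region. The regions were selected on measured values, because a region is present only if its own scaled reads put it in at least 1 depot list, and the genes were chosen with the low eWAT and higher iWAT values at Irx5 known. All values below are therefore descriptions.

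The study mapped TLE3 in adipocytes grown from the epididymal (eWAT) and inguinal (iWAT) white depots and from brown fat (BAT) of male NMRI mice aged 4 to 5 weeks. Each library used stromal-vascular cells pooled from 10 to 15 mice and then differentiated until day 8 in a medium that all groups shared, with insulin at 30 nM and the PPARγ agonist rosiglitazone at 1 µM. Only cultures with more than 50% differentiation were used, so undifferentiated cells may also have been present, and chromatin was fixed with 2 mM DSG, a protein crosslinker, for 15 min and 1% formaldehyde for 30 min before pulldown with an antibody to TLE3. There were 4 libraries, 1 per depot for TLE3 and 1 input from iWAT cells, so depots have no replicates, no test of depots was possible and every ratio compares single libraries.

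TLE3 is a corepressor of the Groucho family that does not read DNA itself and is brought to chromatin by transcription factors. The Iroquois genes encode homeodomain transcription factors of the TALE class that pattern embryonic tissues, and they sit in a pair of conserved clusters, Irx1, Irx2 and Irx4 in one and Irx3, Irx5 and Irx6 in the other. Fto, an RNA demethylase gene, lies beside the second cluster, and its introns hold the body-weight association of the human locus, which has been linked in fat to IRX3 and IRX5. Rpgrip1l, which encodes a protein of the ciliary transition zone, starts beside Fto and runs in the opposite direction.

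No region that named one of these genes lay within 10 kb of its start site, and sequences at the start sites are shown because the signal lay elsewhere. They are reference sequence from RefSeq (GRCm38.p6), printed 5′ to 3′ with CG dinucleotides in capitals, and promoters were found there for 5 of the 8 genes. The first is the 250 bases before the Irx3 start (chr8:91801655-91801904, minus strand), the start from which the second cluster is plotted. The other is the 75 bases that separate the ends of the RefSeq gene models of Rpgrip1l and Fto (chr8:91313292-91313366, plus strand), a stretch that lies within the 250-base promoter windows of both genes.
Irx3 promoter: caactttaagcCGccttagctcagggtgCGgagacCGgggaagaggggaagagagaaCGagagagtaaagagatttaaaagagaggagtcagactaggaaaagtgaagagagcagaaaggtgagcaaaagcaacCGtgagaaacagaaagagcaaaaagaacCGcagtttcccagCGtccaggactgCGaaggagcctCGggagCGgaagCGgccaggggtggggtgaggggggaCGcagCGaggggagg
Stretch between Rpgrip1l and Fto: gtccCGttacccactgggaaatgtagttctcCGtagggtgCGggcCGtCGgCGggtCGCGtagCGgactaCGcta
The Irx3 stretch had a GC content of 56.0% and 13 CG dinucleotides, against medians of 52.4% and 6 over 32851 RefSeq promoters of the same length. The shorter stretch between Rpgrip1l and Fto had 64.0% and 10. Short motifs were searched on both strands, which were CTTTGA (TCF/LEF), AGGTCA (nuclear receptors), TGTGGT (RUNX), CACGTG (E-box) and ACATGT (IRX). None was present in the 5 promoters, while 13.8%, 14.0%, 14.0%, 6.02% and 4.58% of all promoters held them in that order, and this says only that these letters are not in these windows.

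Positions from here on are in the mm9 build of the deposited tables, and values are scaled reads, the authors' reads per region brought to one total per library. A single read counted for 0.883 scaled reads in the eWAT library, 0.526 in iWAT, 2.77 in BAT and 0.651 for input, so the BAT library was the shallowest. Of the reads of each library, 26.2% in eWAT, 26.3% in iWAT and 10.1% in BAT lay in the joined regions if the total was 10 M reads, an assumed value. A region was listed in a depot with at least 15 scaled reads there and at least 10 times the input, which takes 17 eWAT reads, 29 iWAT reads or 6 BAT reads, and these limits are read from the values. Where no read was found, up to 3 reads remain possible, which is 2.65, 1.58 and 8.30 scaled reads for eWAT, iWAT and BAT. Among cell type markers, 6 of 6 adipocyte marker genes had a listed region within 50 kb of the start in eWAT and 5 of 6 in iWAT and in BAT. The same count was 4, 4 and 3 of 4 brown fat markers, 5, 5 and 4 of 6 fibroblast markers and 3, 2 and 0 of 4 macrophage markers. Over 21887 protein-coding genes the shares were 46.0%, 42.4% and 21.5%. These counts show where TLE3 was found, not expression, so they do not check which cells were present. The share of other cells in each culture was not tested.

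Most of the 69 regions were listed in iWAT, and they lay far from the start sites of the genes they named. In iWAT 59 were listed (85.5%, against 72.5% of all regions), in eWAT 36 (52.2%, against 73.3%) and in BAT 17 (24.6%, against 21.6%). iWAT alone held 29 (22.1% of all regions had this pattern), eWAT alone 7 (23.2%) and BAT alone 3 (3.14%). A further 13 were listed in all 3 depots (15.9%), 16 in eWAT and iWAT (33.1%) and 1 in iWAT and BAT. The highest of the 3 scaled values was in iWAT at 41 regions (44.3% of all regions), in eWAT at 20 (50.0%) and in BAT at 8 (5.72%). Introns held 23 of the regions (33.3%, against 45.4% of all regions) and the other 46 were intergenic (66.7%, against 49.7%). Their median distance to the named start was 152 kb, against 38.5 kb over all regions. None lay within 10 kb of that start, where 20.5% of all regions lay, and 43 lay beyond 100 kb (62.3%, against 25.4%).

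**Figure D1:**
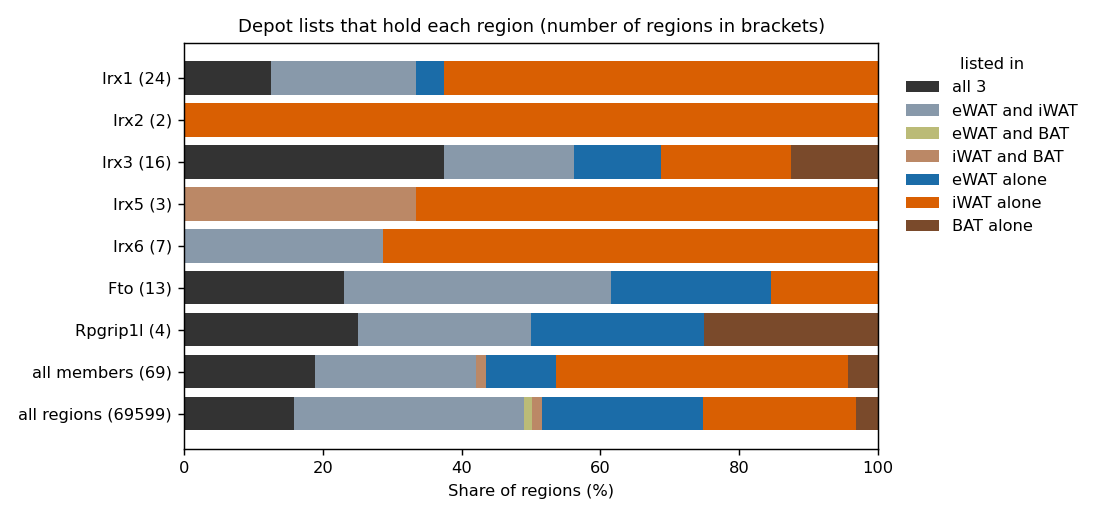
Share of regions (%) by which depot lists hold them, for each gene, the 69 member regions and all 69599 regions. The iWAT-alone share is largest for Irx2 (2 of 2 regions) and is 15 of 24 for Irx1, while Irx3 has 6 of 16 regions in all 3 lists.

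Some list memberships turned on small differences at the limit, although the median unlisted value was 5.30 in eWAT, 11.8 in iWAT and 2.77 in BAT. The lowest listed values were 15.0 in eWAT, 15.2 in iWAT and 19.4 in BAT, and the highest unlisted values below 15 were 14.1, 14.7 and 13.8. Of the 33 regions not listed in eWAT, 32 were under 15 scaled reads and 1 was under 10 times the input. In iWAT 6 of 10 were under 15 and 4 were held back by the input, and in BAT 46 of 52 were under 15 and 6 were held back by the input.

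Ratios between libraries are log2 ratios of reads, set relative to the median ratio of the strongest 25% of all regions, with exact Clopper-Pearson 95% intervals that cover counting error only. A region passed the 2-fold rule when its relative ratio was at least 2-fold and its interval lay on one side of 0. Between eWAT and iWAT, 35 of 69 regions were lower in eWAT (24.1% of all regions were) and 3 were higher (16.3%). The median region ratio was −1.14, against −0.04 over all regions. Between BAT and eWAT, 11 regions were higher in BAT (11.3% of all regions) and 1 lower (6.68%). Between BAT and iWAT, 10 were higher in BAT (11.8%) and 9 lower (6.93%). The BAT counts depended on the scaling. On the authors' own scale 3 regions were higher and 17 lower in BAT than in eWAT, where 3.12% and 47.7% of all regions were. Against iWAT 3 were higher and 46 lower in BAT on that scale, where 2.91% and 49.8% of all regions were. For eWAT over iWAT it gave 5 higher, against 19.0% of all regions. Regions present only through 1 list passed the limits in that library and not in the others, which favours unlike values. None of these shares therefore supports a difference between depots.

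In the second cluster, on chromosome 8, 43 of the 69 regions were spread over 1470 kb, from 93792409 in Rpgrip1l to 95262210 beyond Irx6. Together they had 1419 scaled reads in the eWAT library, 1795 in iWAT and 921 in BAT, against 76.1 in the input. The only other gene named in this span was Crnde, a long noncoding RNA gene beside Irx5, with 6 regions.

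**Figure D2:**
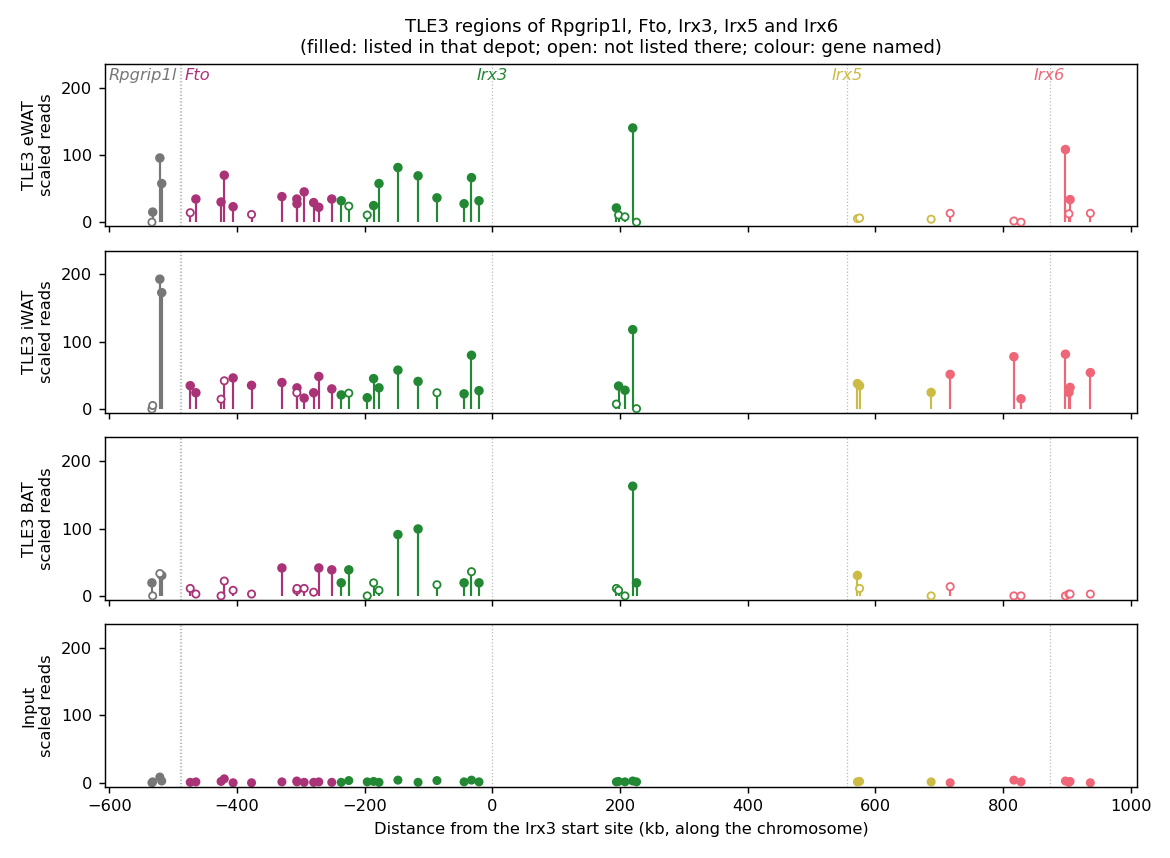
Scaled reads of each TLE3 region along the Fto and Irx3 to Irx6 locus, by distance (kb) from the Irx3 start along the chromosome, 1 panel per library. Filled points are listed in that depot and dotted lines mark the gene starts. The BAT panel is high on both sides of Irx3, reaching 163 at 220 kb, and has 0 to 13.8 at the Irx6 regions, whereas Irx5 has filled points in iWAT and BAT and none in eWAT.

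Irx3, like Irx5, is a gene of this cluster that published accounts link to the Fto introns. Its 16 regions summed to 640 scaled reads in the eWAT library, 579 in iWAT and 570 in BAT, and to 30.6 in the input. Relative to the strongest regions, the eWAT and iWAT libraries did not differ beyond counting error, with a log2 ratio of 0.01 (95% interval −0.12 to 0.15). On the authors' scale the eWAT over iWAT ratio was 0.15 (0.01 to 0.28), an interval just above 0. BAT lay above eWAT by 1.24 (1.01 to 1.47) and above iWAT by 1.43 (1.21 to 1.65) relative to the strongest regions. On the authors' scale these ratios were −0.17 (−0.40 to 0.06) and −0.02 (−0.24 to 0.19), so the direction for BAT depended on the scaling. Of the 16 regions 5 had their highest value in BAT on the authors' scale, and 5.72% of all regions did. Among them 94100693 and 94551290, the second on 7 BAT reads, were in the set through the BAT list alone, which favours a high BAT value. At 94177621, 94545338 and 94209172 BAT was 1.12, 1.16 and 1.45-fold above eWAT on that scale. The count is therefore only described.

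The strongest Irx3 region lay 220 kb upstream of the start, towards Irx5, at chr8:94545338-94545568. It had 140 scaled reads in the eWAT library, 118 in iWAT and 163 in BAT, against 2.60 in the input. By BAT value it ranked 240 of 69599 regions, and by eWAT value 1687. It was listed in all 3 depots and was highest in BAT by 1.16-fold over eWAT on the authors' scale. The relative ratios were 1.63 (1.17 to 2.07) for BAT over eWAT and 1.93 (1.49 to 2.35) for BAT over iWAT.

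Towards Fto, 11 Irx3 regions lay between 20.9 and 237 kb beyond the gene, and 6 of them were inside Fto intron 8, the last intron of that gene. The region at chr8:94177621-94177851, in that intron, had 81.2 scaled reads in the eWAT library, 57.8 in iWAT and 91.2 in BAT. The region at chr8:94209172-94209402, between the genes, had 68.9 in eWAT, 41.0 in iWAT and 99.5 in BAT, against 0.650 in the input. Both were listed in all 3 depots and highest in BAT. Their relative BAT over iWAT ratios were 2.11 (1.51 to 2.69) and 2.74 (2.12 to 3.32).

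The other Irx3 regions of all 3 lists were weaker. The region at 94088855, the farthest in Fto intron 8, had 31.8 in eWAT, 21.0 in iWAT and 19.4 in BAT. The regions at 94281257 and 94304588, which lay 44.2 and 20.9 kb beyond the gene, had 27.4, 22.6 and 19.4 and 31.8, 27.3 and 19.4 in the same order. Each BAT value of 19.4 rested on 7 reads, and none of these 3 regions passed the 2-fold rule in any pair of libraries.

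Single-list regions of Irx3 went in each direction. BAT alone listed 94100693, with 23.8 in eWAT, 23.6 in iWAT and 38.7 in BAT, where an input of 3.25 kept both white depots under 10 times input. BAT alone also listed 94551290, which had 0 reads in eWAT, 0.530 scaled reads in iWAT and 19.4 in BAT. eWAT alone listed 94238740 (36.2 in eWAT, 24.2 in iWAT and 16.6 in BAT) and 94519760 (21.2, 7.36 and 11.1), and the second of these was higher in eWAT than iWAT by 1.39 (0.39 to 2.46). iWAT alone listed 94129570 (10.6, 16.8 and 0), 94523197 (10.6, 34.2 and 8.30) and 94533238 (7.95, 27.9 and 0). The last pair and the neighbouring 94519760 lay 194 to 208 kb upstream of the start, so regions near each other upstream of Irx3 differed in opposite directions. At 94292838, 32.6 kb beyond the gene, the eWAT value was 66.2, the iWAT value 79.9, which is the highest Irx3 value within 50 kb, and the BAT value 36.0.

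Around the Irx3 start itself a stretch of 215 kb held no region in any list. It ran from 20.8 kb beyond the start to 194 kb upstream of it and was the longest gap in the chromosome 8 span.

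Irx5, named beside Irx3 in accounts of the locus in fat, had 3 regions, and all were listed in iWAT and none in eWAT. The nearest, 15.7 kb beyond the start at chr8:94897272-94897502, had 5.30 scaled reads in the eWAT library, 37.8 in iWAT and 30.4 in BAT, against 1.30 in the input. The region at 94900556, 19.0 kb beyond the start, had 6.18 in eWAT, 34.7 in iWAT and 11.1 in BAT. The region at 95012649, 131 kb beyond the start, had 4.42, 24.7 and 0. The eWAT value was thus below the iWAT value at each, by 7.14-fold, 5.61-fold and 5.59-fold on the scaled values. All 3 intervals lay below 0, with relative ratios of −2.97 (−4.46 to −1.78), −2.62 (−3.99 to −1.50) and −2.62 (−4.30 to −1.29). The genes were chosen with the low eWAT values at Irx5 known, and none of its regions entered through the eWAT list. Low eWAT ratios here and in the gene's sum follow from that choice and are only described.

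In BAT only the first Irx5 region was listed, on 11 reads. It was 5.74-fold above eWAT on the scaled values, with a relative ratio of 3.93 (2.37 to 5.65), and the second rested on 4 BAT reads with a ratio of 2.25 (0.03 to 4.23). Summed over the gene, the values were 15.9 in eWAT, 97.2 in iWAT and 41.5 in BAT, against 4.55 in the input. The eWAT over iWAT ratio was −2.74 (−3.53 to −2.04), BAT over eWAT was 2.80 (1.70 to 3.87), and BAT over iWAT was 0.23 (−0.64 to 0.99), whose interval holds 0. The last ratio changed sign with the scaling, to −0.57 (−1.43 to 0.19) relative to the regions of all 3 lists and −1.23 (−2.10 to −0.47) on the authors' scale.

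The region nearest to the Irx5 start was named for Crnde, at 3.54 kb, and is not among the 69. It had 0 reads in eWAT, 16.3 scaled reads in iWAT and 8.30 in BAT, and was listed in iWAT. The next Crnde region, 42.7 kb from the Irx5 start, had 7.95 in eWAT, 8.93 in iWAT and 47.0 in BAT and was listed in BAT alone. Farther out, 228 kb from the start, a Crnde region with 190 in eWAT, 136 in iWAT and 96.8 in BAT was listed in all 3 depots. At the other 3 Crnde regions, 73.3 to 274 kb from the start, the values ran from 8.83 to 16.8 in eWAT, 15.2 to 20.5 in iWAT and 5.53 to 22.1 in BAT.

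By the shares of the summed signal over eWAT, iWAT and BAT, Irx5 stood at 10.3%, 62.9% and 26.8%. Among 10498 genes with a mean sum of at least 30 scaled reads, the closest in these 3 shares were Ostn (8.70%, 62.4% and 28.9%), Gpbp1 (12.5%, 62.5% and 25.1%), Nefm (12.2%, 63.3% and 24.6%), Zfp27 (7.60%, 63.3% and 29.1%) and Rp1l1 (10.4%, 59.7% and 29.9%). Likeness was the Euclidean distance between shares over 3 libraries, from 2.61 to 4.42 percentage points for these genes.

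Irx6, the outermost gene of the cluster, had 7 regions, all listed in iWAT, 2 in eWAT and none in BAT. They summed to 182 scaled reads in the eWAT library, 337 in iWAT and 22.1 in BAT, against 10.4 in the input. On the Irx5 side of the start, 3 regions had 15.0 in eWAT, 145 in iWAT and 13.8 in BAT in sum, a ratio of −3.40 (−4.20 to −2.69) for eWAT over iWAT. Beyond the start, 4 regions had 167, 192 and 8.31, a ratio of −0.34 (−0.60 to −0.08). The eWAT deficit of the gene's sum, −1.02 (−1.25 to −0.79), lay largely on the Irx5 side, where all 3 regions entered through the iWAT list alone, and over the 4 regions within 50 kb the ratio was −0.13 (−0.41 to 0.15).

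Irx6 regions on opposite sides of the start had unlike values. At 95142225, 55.8 kb upstream, eWAT had 1.77 scaled reads (2 reads), iWAT 77.8 (148 reads) and BAT 0. At chr8:95222961-95223191, 24.9 kb beyond the start, eWAT had 108, iWAT 81.5 and BAT 0. The first had a relative eWAT over iWAT ratio of −5.59 (−8.65 to −3.71) and the second 0.27 (−0.08 to 0.62). The first was in the set through the iWAT list alone, so its low ratio follows from how it was chosen. At the second region the BAT over eWAT ratio was −2.29 with the 0 BAT reads put at 3, and this was the only member region lower in BAT than eWAT by the 2-fold rule. The remaining regions listed in iWAT alone had eWAT values from 0 to 13.2 and iWAT values from 15.2 to 54.1, and 95230243, listed in eWAT and iWAT, had 33.6, 32.1 and 2.77. Summed BAT signal was below iWAT by a relative ratio of −2.47 (−3.69 to −1.49), on 8 BAT reads.

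Fto had 13 regions, all in its introns, with 413 scaled reads in the eWAT library, 411 in iWAT and 205 in BAT, against 18.2 in the input. The eWAT over iWAT ratio was −0.12 (−0.29 to 0.04), whose interval holds 0. BAT over eWAT was 0.40 (0.02 to 0.75) and BAT over iWAT 0.45 (0.09 to 0.79) relative to the strongest regions. Both turned negative on the authors' scale, at −1.01 (−1.39 to −0.66) and −1.01 (−1.37 to −0.66), so no direction for BAT holds over the scalings.

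The BAT signal of Fto was listed in its later introns. The first intron held 5 regions with a sum of 171 in eWAT, 162 in iWAT and 44.2 in BAT, and BAT listed none of them. The later introns held 8 regions with 242 in eWAT, 249 in iWAT and 160 in BAT, and BAT listed 3. These were 93995958 in intron 5 (38.0 in eWAT, 39.4 in iWAT and 41.5 in BAT), 94053747 in intron 8 (22.1, 48.4 and 41.5) and 94074046 in intron 8 (34.4, 29.9 and 38.7). All 3 were in every list, rested on 14 or 15 BAT reads, and passed the 2-fold rule for BAT over eWAT and over iWAT. The relative BAT over eWAT ratio was −0.54 (−1.38 to 0.20) for the first intron and 0.82 (0.38 to 1.23) for the later ones. The first-intron regions were all in the set through a white depot list and none through BAT, so these ratios only describe the listed regions.

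Between the white depots Fto regions went both ways. The region with the highest eWAT value, 93905715 in intron 1, had 69.8 in eWAT, 42.0 in iWAT and 22.1 in BAT and was listed in eWAT alone, because its input of 5.86 kept the other depots under 10 times input. eWAT alone also listed 93900678 in intron 1 (30.0, 14.7 and 0). At 94030815 in intron 7 eWAT had 45.0, iWAT 16.3 and BAT 11.1, a ratio of 1.33 (0.66 to 2.03). At 93948392 in intron 3 the values were 11.5, 35.2 and 2.77, a ratio of −1.75 (−2.73 to −0.88). Of the 13 regions, 1 was higher and 4 were lower in eWAT by the 2-fold rule, as were 16.3% and 24.1% of all regions. iWAT alone listed 93852391 in intron 1 (14.1 in eWAT, 34.7 in iWAT and 11.1 in BAT), which had 16 reads in eWAT against a limit of 17. Its ratio was −1.43 (−2.32 to −0.62), and it was the region nearest to the Fto start, at 15.1 kb. The regions at 94019304 and 94019564 were 30 bp apart and may share reads, with 34.4 and 27.4 in eWAT, 24.2 and 31.5 in iWAT and 8.30 and 11.1 in BAT.

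Rpgrip1l had 4 intronic regions, and 2 of them held most of its signal. In intron 9, chr8:93804810-93805040 had 95.4 scaled reads in the eWAT library, 193 in iWAT and 33.2 in BAT, against 8.46 in the input. Its neighbour in the same intron, chr8:93807756-93807986, had 57.4, 173, 30.4 and 2.60 in the same order. By iWAT value they ranked 207 and 501 of 69599 regions, the highest iWAT values of all members. Both were lower in eWAT than iWAT, with ratios of −1.15 (−1.48 to −0.84) and −1.72 (−2.13 to −1.34).

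The other Rpgrip1l regions, in intron 15, were weak. At 93793616, listed in eWAT alone, the values were 15.0 in eWAT, 5.26 in iWAT and 0 in BAT, and the ratio was 1.38 (0.17 to 2.67). At 93792409, listed in BAT alone, eWAT, iWAT and the input had 0 reads and BAT had 7 reads (19.4 scaled reads). The gene's sum was 168 in eWAT, 372 in iWAT and 83.0 in BAT, against 12.4 in the input. Its eWAT over iWAT ratio was −1.28 (−1.52 to −1.05) and its BAT over iWAT ratio −0.71 (−1.29 to −0.18), which became −0.23 relative to the median of all regions. BAT over eWAT was 0.40 (−0.21 to 0.96) and had no fixed direction, at 0.80 (0.19 to 1.36) relative to all regions, −0.27 (−0.88 to 0.29) relative to the regions of all 3 lists and −1.02 (−1.62 to −0.46) on the authors' scale.

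Relative to the strongest regions, the 10 regions higher in BAT than iWAT ran from Rpgrip1l to Irx5, where 11.8% of all regions were higher. Of these, 8 lay between Fto intron 5 and 226 kb upstream of Irx3. At 94053747 in Fto and 94897272 of Irx5 the BAT scaled values, 41.5 and 30.4, were below the iWAT values, 48.4 and 37.8. On the authors' scale only 3 regions were higher in BAT than iWAT (2.91% of all regions). Over the 43 chromosome 8 regions, 8 had the highest scaled value in BAT (18.6%, against 5.72% of all regions). On chromosome 13 none of 26 did. BAT alone listed 3 of the chromosome 8 regions and 0 of the chromosome 13 regions. How regions entered the set thus bears on both counts, and the clusters are not compared. Depot and library depth cannot be told apart with 1 library per depot.

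In the first cluster, on chromosome 13, 26 regions were spread over 1147 kb from 71709532 to 72856747. They summed to 630 scaled reads in the eWAT library, 1224 in iWAT and 194 in BAT, against 39.7 in the input. The only other gene named in the span was Gm20554, with 6 regions, all listed in iWAT and 2 in eWAT.

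**Figure D3:**
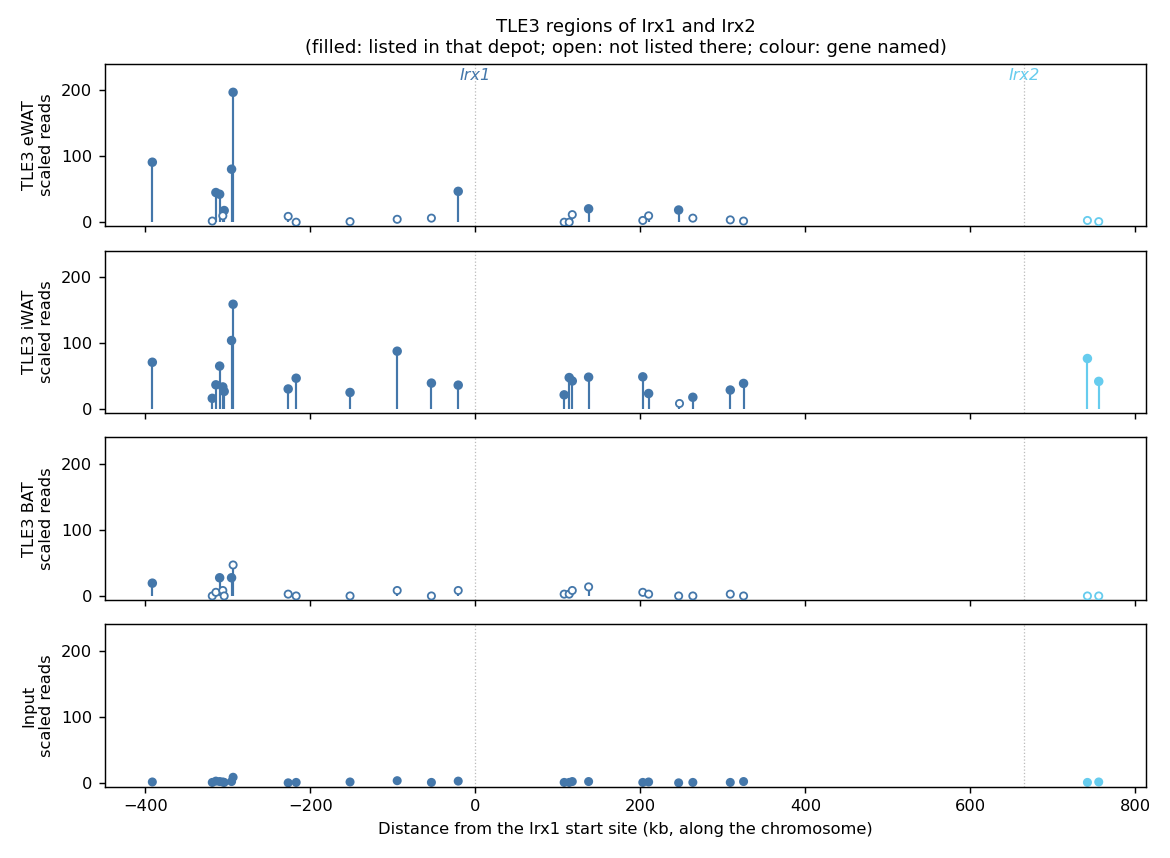
Scaled reads of each TLE3 region along the Irx1 and Irx2 locus, by distance (kb) from the Irx1 start along the chromosome, 1 panel per library. Filled points are listed in that depot. Regions are filled across the whole span in iWAT (25 of 26), while eWAT signal is highest 294 kb from the start on the left, at 197, and few regions are filled in BAT (3).

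Irx1 had 24 regions, the most of the 8 genes, all intergenic. iWAT listed 23, eWAT 9 and BAT 3, and 15 were in the iWAT list alone. They summed to 626 scaled reads in the eWAT library, 1106 in iWAT and 194 in BAT, against 37.7 in the input. The eWAT over iWAT ratio was −0.95 (−1.08 to −0.83). By the 2-fold rule 16 regions were lower in eWAT (24.1% of all regions were) and none higher (16.3%). BAT over iWAT was −1.06 (−1.42 to −0.72) and BAT over eWAT −0.28 (−0.66 to 0.07). The second depended on the scaling, at 0.12 (−0.26 to 0.47) relative to all regions, −0.95 (−1.32 to −0.59) relative to the regions of all 3 lists and −1.69 (−2.07 to −1.34) on the authors' scale. Only 1 region lay within 50 kb of the start, 20.8 kb beyond it at 72080253, with 46.8 in eWAT, 36.3 in iWAT and 8.30 in BAT. There the eWAT over iWAT ratio was 0.24 (−0.31 to 0.77) and BAT over iWAT −0.67 (−2.99 to 0.93), so the gene's deficit in eWAT came from regions farther away.

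The highest Irx1 value lay in a group of 7 regions 294 to 319 kb beyond the gene, of which 5 were listed in both white depots. That region, chr13:71807420-71807650, had 197 scaled reads in the eWAT library, 159 in iWAT and 47.0 in BAT, against 8.46 in the input. It ranked 437 of 69599 by eWAT value and was not listed in BAT, where it stood at 5.56 times the input. Next to it 71805559 had 80.4 in eWAT, 104 in iWAT and 27.6 in BAT, and 71791132 had 42.4, 65.2 and 27.6. These and the outermost region, 71709532 (91.0, 71.0 and 19.4), were the 3 Irx1 regions in all lists. None passed the 2-fold rule between eWAT and iWAT.

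Of the 15 regions in the iWAT list alone, 8 lay upstream of the start and 7 beyond the gene. At 72006288, 94.8 kb beyond the start, eWAT had 4.42, iWAT 87.8 and BAT 8.30, so iWAT was 19.9-fold above eWAT on the scaled values. At 71883841 eWAT and BAT had 0 reads and iWAT 89 reads (46.8 scaled reads), which is 17.7-fold above eWAT with its 0 reads put at 3. At 72214756, 114 kb upstream, eWAT had 0 reads, iWAT 91 reads (47.8 scaled reads) and BAT 1 read. With the eWAT count again put at 3, iWAT was 18.1-fold above eWAT. Upstream of the start 9 of 10 regions were listed in iWAT and 2 in eWAT, and their sums were 74.2 in eWAT, 327 in iWAT and 38.7 in BAT. That is an eWAT over iWAT ratio of −2.27 (−2.62 to −1.94). Beyond the gene the 14 regions summed to 552, 778 and 155, a ratio of −0.63 (−0.77 to −0.49). Of the upstream regions 8 of 10 were in the set through the iWAT list alone, so a low ratio there follows from how they were chosen and the sides are not compared. The single region listed in eWAT alone, 72347396 at 246 kb upstream, had 18.5 in eWAT, 8.93 in iWAT and 0 in BAT, and its eWAT over iWAT ratio was 0.92 (−0.07 to 1.93).

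Irx2 had 2 regions, both beyond the gene and both in the iWAT list alone. At chr13:72842813-72843043, 76.7 kb from the start, eWAT had 2.65 scaled reads (3 reads), iWAT 76.7 (146 reads), BAT 0 and the input 0.650. At chr13:72856517-72856747, 90.4 kb from the start, eWAT had 0.880 (1 read), iWAT 42.0 (80 reads), BAT 0 and the input 1.30. The eWAT value was 4.08 times the input at the first and 0.677 times at the second, and the iWAT value was 118 and 32.3 times the input. Summed, the eWAT over iWAT ratio was −5.20 (−7.09 to −3.83). Both regions were in the set through the iWAT list alone, so a low ratio follows from how they were chosen. The BAT library had 0 reads at both, which allows up to 8.30 scaled reads at each, so only an upper bound exists there. Irx4, the third gene of this cluster, had no region within the joined lists.

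**Figure D4:**
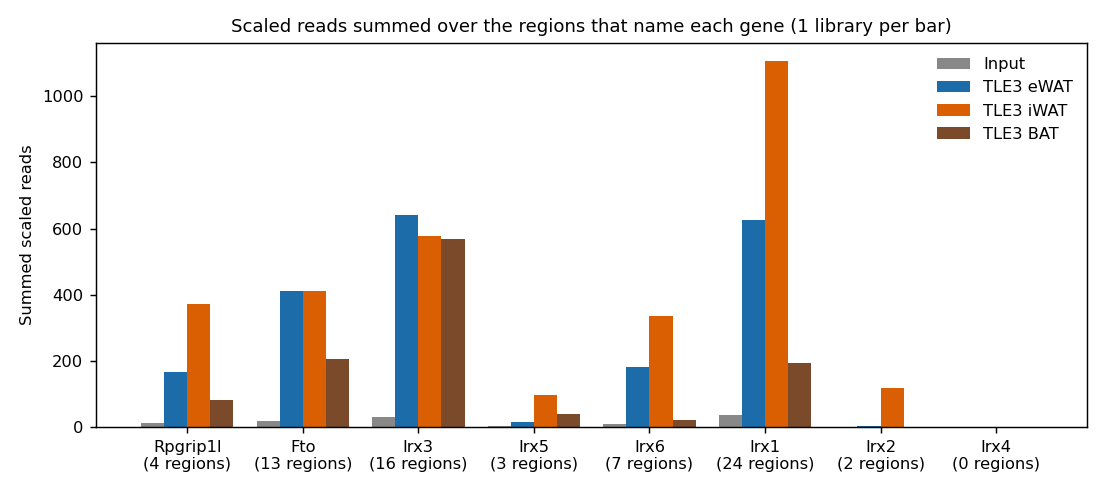
Scaled reads summed over all regions that name each gene (number of regions in brackets), with 1 library per bar and no error bars because there are no replicates. Irx3 and Fto have like sums in eWAT and iWAT (640 and 579, 413 and 411), while Irx1, Irx2, Irx5, Irx6 and Rpgrip1l are higher in iWAT.

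By gene, 5 of the 8 had a listed region within 50 kb of the start in eWAT, 6 in iWAT and 3 in BAT. Over 21887 protein-coding genes these shares were 46.0%, 42.4% and 21.5%. Sets of related genes gave the following counts of genes with such a region in eWAT, iWAT and BAT. Of 12 other TALE homeobox genes, the class that the Iroquois factors belong to, 8, 8 and 5 had one. Meis2, with 5, 3 and 1 listed regions, and Pknox2, with 2, 5 and 1, had the most, and Pbx2, Pbx3 and Pbx4 had none. Of 13 genes that write, erase or read the RNA mark that FTO removes, 8, 8 and 4 had one, led by Rbm15 (4, 3 and 2 regions) and Virma (4, 3 and 1).

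Of 16 ciliary transition zone genes, which act with Rpgrip1l, 5, 5 and 2 had a region, led by Ahi1 (5, 7 and 1). Of 8 genes named in accounts of FTO, IRX and fat, 7 had one in each depot. Pparg, the regulator of adipocyte differentiation, had 21, 19 and 7 regions, Ebf2 had 6, 7 and 5, and Prdm16 had none. Of 8 neighbours on chromosome 8, 6, 6 and 5 had one, led by Chd9 (10, 7 and 2) and Mmp2 (5, 7 and 3), and Rbl2 had none. Of 11 neighbours on chromosome 13, 5, 6 and 4 had one, led by Adamts16 (2, 4 and 1) and Ice1 (1, 4 and 1). The depot differences at the Iroquois regions were read at distances where the naming of the nearest gene, and not a measured contact, joins a region to a gene.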

How the data were processed

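TLE3 ChIP-seq was measured in 4 libraries, 1 each for eWAT, iWAT and BAT adipocytes and 1 input from iWAT. The deposited values are a signal, reads per region of 230 bp that the authors brought to a common total, per the file headers. STAR, HOMER and mm9 are named by the submitters' processing notes, and the peak caller's control and settings are not given in the sources used here. The lists were joined by peak identifier with duplicates dropped, in Python 3.11.15 with pandas 2.3.3, numpy 2.4.6 and scipy 1.17.1, and figures used matplotlib 3.10.9.

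In each library 100% of the values were whole multiples of 1 read within 0.1 read, and reads were recovered from that step. Ratios of reads carry exact Clopper-Pearson 95% intervals, which were checked on simulated data. They were set relative to the median ratio of the strongest 25% of regions, whose log2 values were 0.13 (eWAT over iWAT), −1.41 (BAT over eWAT) and −1.46 (BAT over iWAT). A count of 0 was put at 3 reads for the 2-fold rule. No p-values were computed, because each depot has 1 library.

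Regions named are those in all 3 lists or in 1 list, the highest of each gene per library and those past the 2-fold rule, summarised where many. The members and gene lists were chosen with earlier results of these data known. Region sequences in mm9 are not used here. Other scalings, limits, distances, 1 added read and input subtraction were tried.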

Additional observations from a re-analysis of the deposited data

How the results depend on the processing

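No paired analysis was possible because each depot has 1 library. Most BAT results depended on the scaling. With ratios relative to the regions in all 3 lists, 6 regions were higher and 9 lower in BAT than eWAT (11 and 1 relative to the strongest regions) with a median of −0.78 (−0.11), where 5.94% and 20.4% of all regions were and their median was −1.07. In the same scaling 25 were lower in BAT than iWAT (9) with a median of −1.70 (−0.90), where 25.4% of all regions were and their median was −1.27. Relative to all regions, whose own median is then 0, the medians were 0.29 and −0.42, and 3 regions were lower in BAT than iWAT (2.16% of all). On the authors' scale BAT over eWAT gave 3 higher and 17 lower with a median of −1.52 (all regions −1.81), BAT over iWAT gave 3 higher and 46 lower with −2.36 (−1.94), and eWAT over iWAT gave 5 higher (3) with −1.0 (−1.14). With 1 read added to each library the median was −0.97 between eWAT and iWAT, 0.85 over eWAT for BAT and −0.32 over iWAT for BAT, with 5 regions lower in BAT than iWAT, since 1 BAT read is worth more scaled reads. At a limit of 30 scaled reads BAT listed 9 regions (17), BAT alone 1 (3) and all 3 depots 5 (13). With no input limit eWAT alone held 4 (7) and all 3 depots 20. Of the 19 ratios of gene sums, the following changed sign. Irx1 eWAT over iWAT was 0.24 within 50 kb. On the authors' scale Irx3 was −0.17 against eWAT and −0.02 against iWAT in BAT. Fto BAT over eWAT was −0.27 relative to the common regions, −1.01 on the authors' scale, −0.40 within 50 kb and −0.54 within 100 kb, and Fto BAT over iWAT was −0.34, −1.01, −0.63 and −0.42 in that order. Ratios whose interval held 0 also changed sign. These were Irx1 BAT over eWAT (0.12 relative to all regions), Irx3 eWAT over iWAT (−0.18 within 50 kb and −0.06 within 100 kb), Fto eWAT over iWAT (0.01 on the authors' scale), Irx5 BAT over iWAT and Rpgrip1l BAT over eWAT (−0.57 and −0.27 relative to the common regions, −1.23 and −1.02 on the authors' scale). Input subtraction and 1 added read changed no gene sum's sign. The cause of each change was not tested unless stated. The BAT library was the shallowest, and 18 of the 69 regions had 0 reads in it, against 13615 of all 69599 regions.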
